A study of Mus musculus with 10 samples.

Results

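Kdr, Flt1, Pecam1, Cdh5, Tek, Tie1, Vwf, Cldn5, Emcn and Egfl7, 10 genes that mark the endothelium of blood vessels, were followed in irradiated and unirradiated mouse fat. They were taken by symbol from the 24421 gene symbols counted, and all 10 were among the 15266 genes abundant enough to be tested. RNA came from inguinal subcutaneous white fat of the left hindlimb of wild-type C57BL/6J mice, 70 days after that limb received 33.3 Gy of electrons or, in the controls, none. The dose was given at ultra-high rate (FLASH, 4 libraries) or at the conventional rate of radiotherapy (CONV, 3 libraries), and the unirradiated sham group had 3 libraries, all of batch 1 in the labels. The labels used here give no ages and do not say whether mice were pooled or each library is a separate mouse. The p-values then measure only how far these libraries scatter, which may be technical.

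Endothelial cells line every vessel, and in white fat a dense capillary bed hands lipid and oxygen to the adipocytes. VEGF-A drives their growth through the receptor KDR (VEGFR2), while FLT1 (VEGFR1) binds the same ligand more tightly and signals weakly, so that it also acts as a decoy. Angiopoietins act on TEK (TIE2), with TIE1 as its partner receptor, and keep vessels quiescent or open them to remodelling. VE-cadherin (Cdh5), claudin-5 (Cldn5) and PECAM-1 (Pecam1) hold neighbouring cells together, endomucin (Emcn) coats the surface of capillaries and veins, and von Willebrand factor (Vwf) and EGFL7 (Egfl7) are secreted. The microvasculature is a classic target of radiation injury.

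Each library held 22.4 M to 36.0 M counts in genes (M, 1e6). The genes followed here held 284 counts (Cldn5 in CONV replicate 2) to 11976 counts (Cdh5 in FLASH replicate 1), far above a floor of 3 counts, which equals 0.0833 to 0.134 CPM (counts scaled to a library total of 1e6) and covers counting error only. Adipoq, a defining adipocyte gene, was present in all 10 libraries at 268 to 2102 CPM. FLASH replicate 3 and CONV replicate 2 stood apart: 10 B cell markers summed to 2384 and 2897 CPM in them, against 2.12 to 10.9 CPM in the others, and 10 adipocyte markers to 3768 and 2996 CPM, against 15158 to 20709 CPM. Glycam1, a product of lymph node high endothelial venules, was at 36.9 and 144 CPM in this lymphocyte-rich pair, at 0.0368 CPM in CONV replicate 3 and at 0 in the other 7 libraries. Each comparison is therefore given with all 10 libraries and with the 8 others (FLASH n = 3, CONV n = 2, sham n = 3). The 8 are not free of other tissue. Skeletal muscle markers summed to 1646 CPM in CONV replicate 1 and 570.1 CPM in sham replicate 3. Macrophage markers summed to 2111 CPM in CONV replicate 1, and the part of these tissues in the comparisons was not tested. In bulk tissue fewer endothelial cells and less RNA per endothelial cell cannot be told apart.

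Per kilobase of annotated exon, Cdh5 had the highest level in sham fat, at 65.3 ± 9.15 CPM per kb (SD, n = 3). Cldn5 (32.9 ± 4.51), Pecam1 (32.3 ± 6.21) and Egfl7 (23.6 ± 1.87) followed in CPM per kb. The receptors came next, with Tek at 19.0 ± 2.80, Kdr at 18.8 ± 2.51, Tie1 at 10.98 ± 0.915 and Flt1 at 8.61 ± 1.75 CPM per kb. Vwf (6.52 ± 2.92) and Emcn (6.20 ± 2.47) were lowest on this scale. The length used is the union of all annotated exons of a gene, 16064 bases for Vwf and 1416 for Cldn5. The order therefore depends on the annotation and is not a measured order of transcript numbers. Only the steps below Cdh5, below Pecam1 and below Kdr separated every sham library of the higher gene from every one of the lower. No neighbours in the order were separated in this way in FLASH or CONV fat, where Cdh5 stood first and Pecam1 next by mean.

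**Figure D1:**
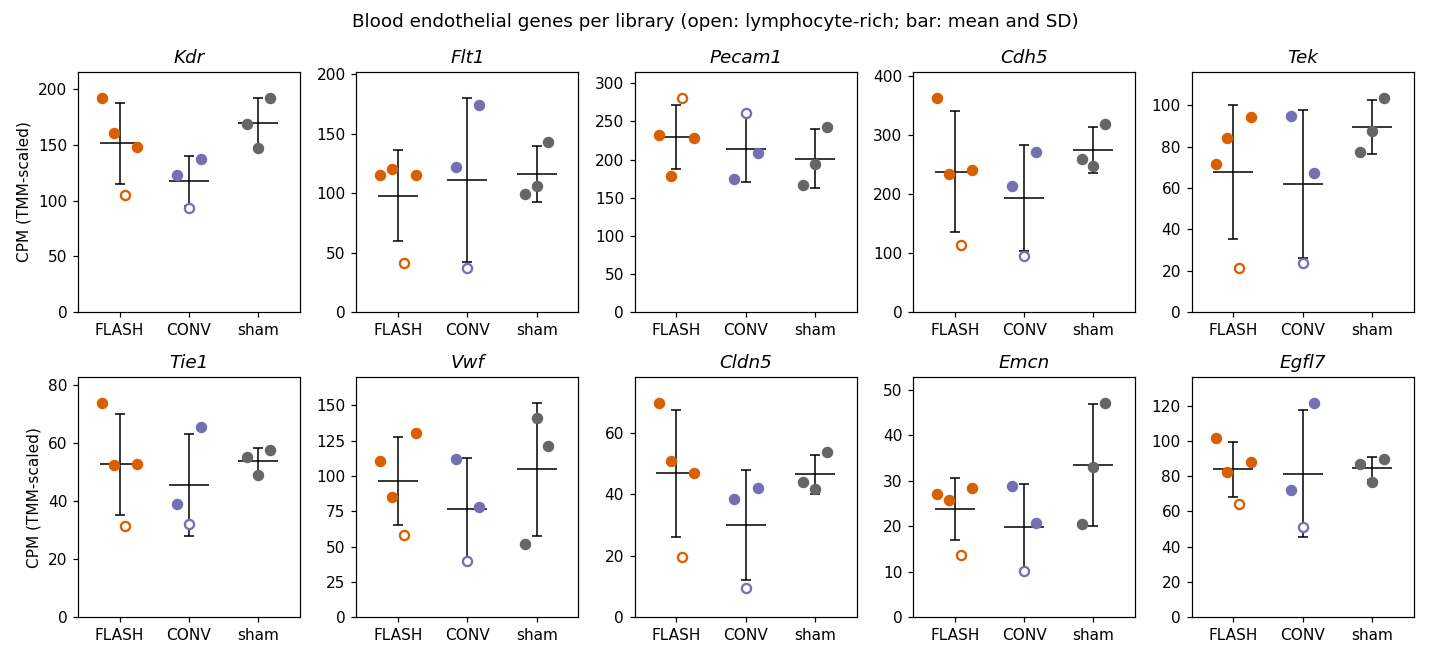
CPM after TMM scaling (vertical axes, linear, from 0) of the 10 genes in FLASH, CONV and sham fat, with a point per library, open symbols for the lymphocyte-rich pair, and the mean with SD. In the 9 panels other than Pecam1 the open symbols lie low in their group, and the Pecam1 panel has them at 281 and 261 CPM, above the other libraries.

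In the lymphocyte-rich pair all of these genes but Pecam1 were low within their groups. In FLASH replicate 3 the median of the 10 genes lay at −0.99 on the log2 scale relative to the sham mean, with 8 genes below the lowest sham library, and in CONV replicate 2 at −1.40, with 9 genes below it. Across all genes tested 42.6% and 43.1% lay below the lowest sham library in these libraries. Pecam1 alone lay above the highest sham library in both. In the 5 other irradiated libraries the median of the 10 genes ran from −0.21 in CONV replicate 1 to 0.21 in FLASH replicate 1, while the sham libraries themselves ran from −0.14 to 0.22. FLASH replicate 1 had 5 of the genes above the highest sham library, against 27.3% of all genes, and CONV replicate 1 had 5 below the lowest, against 28.3%. The part of lymph node tissue in these values was not tested.

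**Figure D2:**
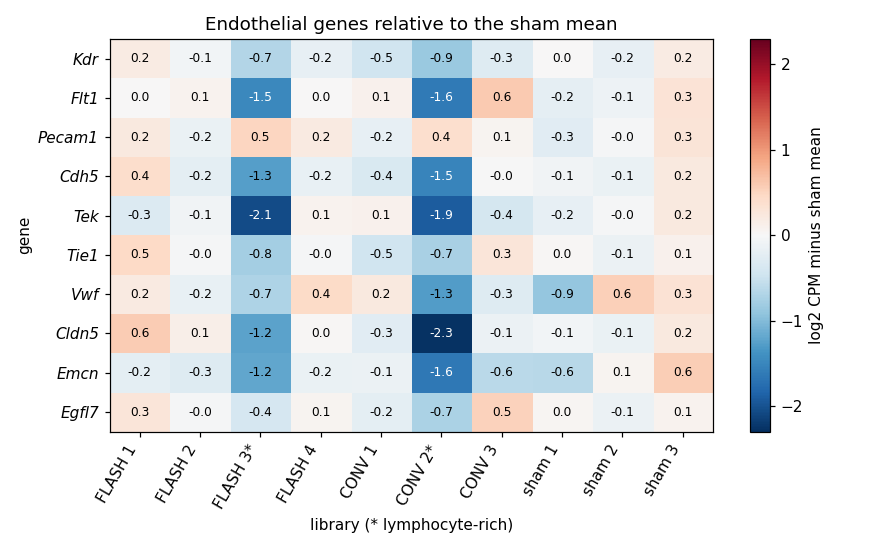
Log2 CPM of each gene (rows) in each library (columns) relative to the sham mean of that gene, with FLASH left of CONV and CONV left of sham. The columns of FLASH replicate 3 and CONV replicate 2 are low except for Pecam1, and among the other 8 columns the lowest value is −0.89 (Vwf in sham replicate 1).

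FLASH and sham fat were compared to see how vessel genes stood after the ultra-high dose rate. None of the 10 genes passed in edgeR's quasi-likelihood test with Benjamini-Hochberg adjustment at 0.05, where 0% of all genes passed. The log2 fold changes ran from −0.50 (Emcn) to 0.19 (Pecam1), with 8 of 10 negative against 45.9% of all genes, a median of −0.14 and a median of 0.03 over all genes. With the 8 libraries the range was −0.31 (Emcn) to 0.25 (Cldn5), with 3 of 10 negative against 51.5% and a median of 0.03 against −0.01 over all genes. None of the 10 passed under any of 28 settings tried, DESeq2 and limma voom among them, in any comparison. No gene of the 10 separated FLASH from sham without overlap, in either set, where 4.91% (10 libraries) and 9.78% (8 libraries) of all genes did. At an unadjusted p under 0.05 there were 0 of the 10 and 99 (0.648%) of all genes, or 0 and 385 (2.52%) with the 8 libraries. Emcn had a log2 fold change of −0.50 ± 0.41 (SE), the most negative of the 10, and −0.31 ± 0.28 with the 8 libraries.

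CONV and sham fat were compared for the conventional dose rate. Kdr was the gene that stood lowest against its spread: it averaged 118 ± 22.7 CPM over CONV libraries and 169 ± 22.7 CPM over sham libraries (SD, n = 3 each), and each CONV library lay below each sham library. Groups lay apart in this direction in 9.11% of all genes, so 1 of 10 is close to the background. None of the 10 passed in edgeR with Benjamini-Hochberg adjustment, where 0% of all genes passed with 10 libraries. Log2 fold changes were negative in 9 of 10 genes, against 43.1% of all genes, with a median of −0.48 against 0.08 over all genes. They ran from −0.76 (Emcn) to 0.09 (Pecam1). With the 8 libraries the median was −0.16 against 0.01 over all genes, with 8 of 10 negative against 48.7%, and Kdr alone lay apart from sham, where 13.2% of all genes did so in that direction. There the 10 genes again had 0 calls, against 6 genes (0.0393%) called among all. At an unadjusted p under 0.05 there were 0 of the 10 against 889 (5.82%) of all genes, and 1 of the 10 (Kdr) against 2022 (13.3%) with the 8 libraries.

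FLASH and CONV fat, which received the same dose, were compared to ask whether the dose rate mattered. Again none of the 10 genes passed in edgeR with Benjamini-Hochberg adjustment, where 0% of all genes passed with 10 libraries and 2 genes (0.0131%) with 8. With all libraries 1 of the 10, Flt1, had a negative log2 fold change, against 55.8% of all genes, with a median of 0.23 against −0.04 over all genes. With the 8 libraries the median was 0.18 against −0.02, and 2 of the 10, Flt1 and Egfl7, were negative against 53.1% of all genes. In that set Kdr and Cldn5 were higher in each FLASH library than in each CONV library and Flt1 lower, where 12.8% of all genes lay apart upwards and 13.3% downwards. With all 10 libraries no gene of the 10 lay apart, against 2.25% of all genes. Apart from Kdr, Flt1 and Cldn5, the genes had log2 fold changes of 0.04 ± 0.28 (SE, Egfl7) to 0.33 ± 0.45 (Vwf), and −0.08 ± 0.21 (Egfl7) to 0.21 ± 0.22 (Cdh5) with the 8 libraries. At an unadjusted p under 0.05 there were 0 of the 10 against 453 (2.97%) of all genes, and 2 of the 10 (Kdr and Cldn5) against 2082 (13.7%) with the 8 libraries. FLASH and CONV were each set against the same sham libraries, so those comparisons are not independent of each other.

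**Figure D3:**
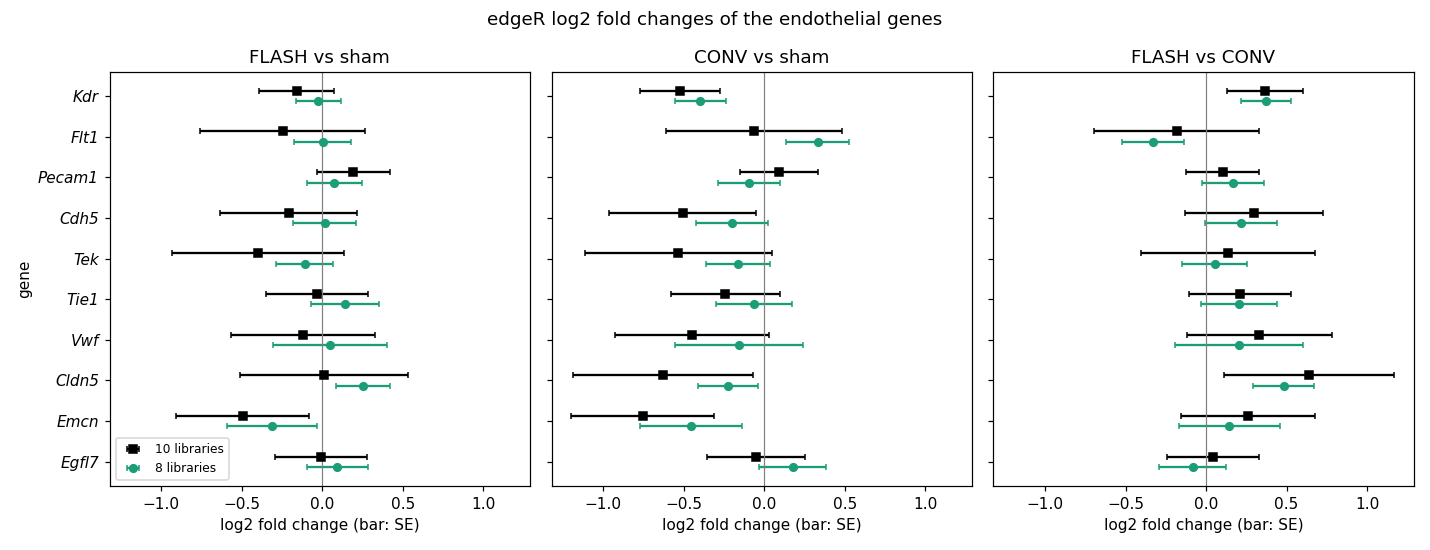
Log2 fold change with SE of each gene for FLASH over sham, CONV over sham and FLASH over CONV, from edgeR with all 10 libraries and with the 8 libraries. None of the 10 genes passed the adjusted threshold in any panel, and for Kdr in CONV against sham the 2 sets give −0.52 and −0.40.

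Kdr and Flt1, the VEGF receptor genes, lie on chromosome 5 of GRCm38 (mm10), Kdr from 75932827 to 75978458 and Flt1 from 147561604 to 147726011, both on the minus strand. Tek and Tie1 lie on chromosome 4, Tek from 94739289 to 94874976 on the plus strand and Tie1 from 118471191 to 118490061 on the minus strand. Of the 10 genes 7 had a promoter in the RefSeq table of GRCm38.p6 (250 bases before to 50 after a start), the others being Pecam1, Cdh5 and Vwf. ETS family factors bind cores of this kind in endothelial genes, so AGGAAG and CGGAAG were searched on both strands (as CTTCCT and CTTCCG on the other strand; the motifs differ in their first base and cannot match at the same place). At least 1 of these motifs was found in 5 of the 9 promoters listed for these genes (Egfl7 has several), those of Flt1, Tie1, Emcn and Egfl7, and in 46.5% of 32851 promoters of the same length. The promoters of both receptor pairs are shown (capitals mark the motifs, 5′ to 3′):
Kdr chr5:75978406-75978705, minus strand: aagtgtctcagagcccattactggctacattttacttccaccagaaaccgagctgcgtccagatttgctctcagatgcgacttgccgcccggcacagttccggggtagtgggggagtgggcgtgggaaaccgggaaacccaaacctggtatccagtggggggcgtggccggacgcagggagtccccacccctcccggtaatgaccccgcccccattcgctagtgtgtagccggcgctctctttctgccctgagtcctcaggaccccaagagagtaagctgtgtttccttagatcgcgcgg
Flt1 chr5:147725962-147726261, minus strand: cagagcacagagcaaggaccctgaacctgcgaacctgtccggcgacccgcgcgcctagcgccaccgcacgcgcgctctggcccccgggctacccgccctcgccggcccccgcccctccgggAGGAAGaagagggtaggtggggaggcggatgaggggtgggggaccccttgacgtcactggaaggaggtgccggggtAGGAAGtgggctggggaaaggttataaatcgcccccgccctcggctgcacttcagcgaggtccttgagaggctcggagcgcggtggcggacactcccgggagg
Tek chr4:94739039-94739338, plus strand: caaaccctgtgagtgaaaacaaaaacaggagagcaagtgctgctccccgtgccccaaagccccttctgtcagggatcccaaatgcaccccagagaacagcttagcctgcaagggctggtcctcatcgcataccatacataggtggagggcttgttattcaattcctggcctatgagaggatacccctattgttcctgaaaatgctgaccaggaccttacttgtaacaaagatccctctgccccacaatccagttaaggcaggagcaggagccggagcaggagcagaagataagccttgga
Tie1 chr4:118489800-118490099, minus strand: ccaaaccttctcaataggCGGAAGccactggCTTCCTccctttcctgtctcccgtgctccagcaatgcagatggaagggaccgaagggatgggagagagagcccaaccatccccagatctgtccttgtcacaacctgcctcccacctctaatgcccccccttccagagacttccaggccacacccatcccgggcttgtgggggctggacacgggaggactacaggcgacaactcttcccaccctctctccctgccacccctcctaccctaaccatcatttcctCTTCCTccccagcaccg
Flt1 and Tie1 hold the motifs searched, and Kdr and Tek do not. The letters GGAA, common to both motifs, also occur with other flanks in Kdr (as GGAA and as TTCC) and in Tek (as TTCC). Any part of these sequences in the receptor values was not tested. A match describes the letters in this window and is not a bound site.

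Kdr, the main VEGF-A receptor, had 193, 161, 105 and 148 CPM in FLASH replicates 1 to 4, 123, 93.2 and 138 CPM in CONV replicates 1 to 3 and 169, 147 and 193 CPM in sham replicates 1 to 3. All 3 CONV libraries lay below all sham libraries, and of the FLASH libraries only the lymphocyte-rich replicate 3 lay within the CONV range. In CONV against sham the log2 fold change was −0.52 ± 0.25 (SE; edgeR adjusted p = 0.607), and −0.40 ± 0.16 with the 8 libraries (adjusted p = 0.335). FLASH against sham gave −0.16 ± 0.23 and −0.03 ± 0.14 in the 10- and 8-library sets, and FLASH against CONV gave 0.36 ± 0.23 and 0.37 ± 0.16, the last with an edgeR adjusted p of 0.355.

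Flt1, the decoy-like VEGF receptor, had 115, 121, 41.1 and 115 CPM in FLASH replicates 1 to 4, 122, 37.3 and 174 CPM in CONV replicates 1 to 3 and 99.6, 106 and 143 CPM in sham replicates 1 to 3. The lymphocyte-rich libraries held less than any other library, and CONV replicate 3 held the most. In FLASH replicates 1, 2 and 4 Flt1 stayed between 115 and 121 CPM, inside the sham range. The log2 fold change of CONV against sham was −0.06 ± 0.55 (SE) with all libraries and 0.33 ± 0.20 with the 8, and that of FLASH against sham −0.25 ± 0.51 and 0.00 ± 0.18. FLASH against CONV gave −0.18 ± 0.51 and −0.33 ± 0.20 (edgeR adjusted p = 0.511 with the 8 libraries).

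The ratio of Kdr to Flt1 CPM, chosen after the values were seen and given with no test, was 1.67, 1.33, 2.55 and 1.29 in FLASH replicates 1 to 4, 1.00, 2.50 and 0.790 in CONV replicates 1 to 3 and 1.69, 1.39 and 1.34 in sham replicates 1 to 3. CONV replicates 1 and 3 had the lowest ratios of all libraries, the lymphocyte-rich pair the highest, and the other FLASH libraries lay at or just below the sham range. Such a ratio compares the same genes across libraries, not the abundance of 1 receptor with the other.

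Tek, the angiopoietin receptor TIE2, had 71.7, 84.1, 21.4 and 94.2 CPM in FLASH replicates 1 to 4, 94.8, 23.6 and 67.2 CPM in CONV replicates 1 to 3 and 77.6, 87.3 and 104 CPM in sham replicates 1 to 3. The lymphocyte-rich libraries were lowest, and the other FLASH and CONV libraries overlapped sham. Its log2 fold change was −0.40 ± 0.54 (SE) in FLASH and −0.53 ± 0.58 in CONV against sham, and −0.11 ± 0.18 and −0.16 ± 0.20 with the 8 libraries. Tie1, its partner, had 74.0, 52.6, 31.4 and 52.9 CPM in FLASH replicates 1 to 4, 39.1, 32.2 and 65.7 CPM in CONV replicates 1 to 3 and 55.2, 49.0 and 57.8 CPM in sham replicates 1 to 3. FLASH replicate 1 and CONV replicate 3 lay above all sham libraries, the lymphocyte-rich pair and CONV replicate 1 lay below them, and the groups overlapped. Tie1 had log2 fold changes of −0.03 ± 0.32 in FLASH and −0.24 ± 0.34 in CONV against sham, and 0.14 ± 0.21 and −0.06 ± 0.24 with the 8 libraries.

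The Tek to Tie1 ratio of CPM, also chosen after the values were seen, was 0.970, 1.60, 0.681 and 1.78 in FLASH replicates 1 to 4, 2.42, 0.733 and 1.02 in CONV replicates 1 to 3 and 1.41, 1.78 and 1.79 in sham replicates 1 to 3. It was low in the lymphocyte-rich pair, in FLASH replicate 1 and in CONV replicate 3, and highest in CONV replicate 1.

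**Figure D4:**
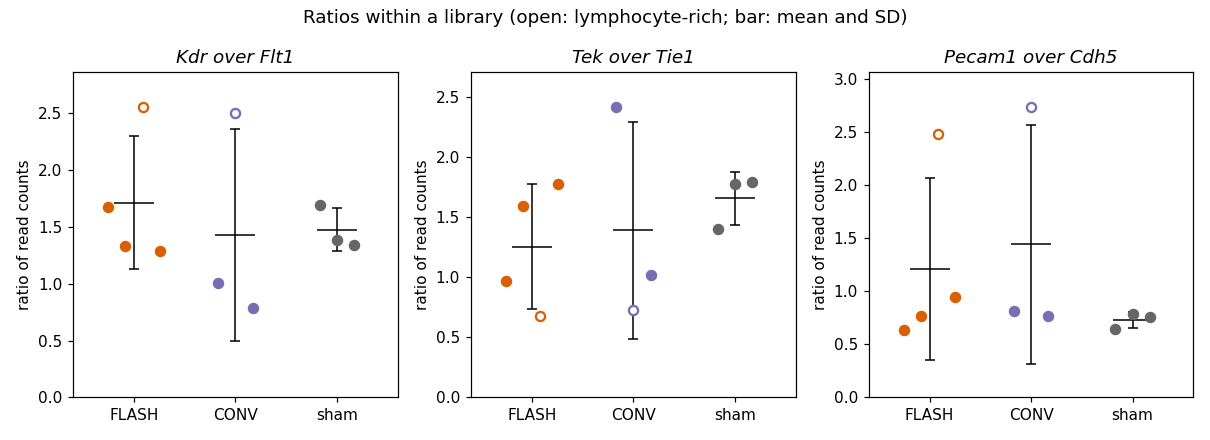
Ratios of CPM between pairs of the genes in each library (vertical axes, linear), FLASH left of CONV left of sham, with open symbols for the lymphocyte-rich pair. Pecam1 over Cdh5 is 2.48 and 2.74 in that pair and at most 0.949 elsewhere, and Kdr over Flt1 is lowest in CONV replicates 1 and 3.

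Cdh5, the adherens junction cadherin of endothelium, had 363, 233, 113 and 241 CPM in FLASH replicates 1 to 4, 213, 95.1 and 271 CPM in CONV replicates 1 to 3 and 258, 247 and 318 CPM in sham replicates 1 to 3. The pair of lymphocyte-rich libraries was lowest, FLASH replicate 1 was highest, and FLASH and CONV overlapped sham. Its log2 fold change was −0.21 ± 0.43 (SE) in FLASH and −0.51 ± 0.46 in CONV against sham, and 0.01 ± 0.20 and −0.20 ± 0.22 with the 8 libraries. In GENCODE M21 the gene, at chromosome 8, 104101625 to 104144511 (plus strand), is overlapped by the antisense gene Gm29682 with 0 exon bases in common.

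Cldn5, the tight junction claudin that limits leak of small molecules, had 69.7, 50.9, 19.6 and 47.0 CPM in FLASH replicates 1 to 4, 38.6, 9.52 and 42.0 CPM in CONV replicates 1 to 3 and 44.0, 41.8 and 53.8 CPM in sham replicates 1 to 3. FLASH replicate 1 was highest and CONV replicate 2 lowest, and among the 8 libraries each FLASH value lay above each CONV value. In that set FLASH against CONV gave 0.48 ± 0.19 (SE; edgeR adjusted p = 0.325), and with all libraries 0.64 ± 0.53. Against sham the log2 fold change was 0.01 ± 0.52 in FLASH and −0.63 ± 0.56 in CONV, or 0.25 ± 0.17 and −0.23 ± 0.19 with the 8 libraries. Its CPM relative to Cdh5 was 0.192, 0.219, 0.173 and 0.195 in FLASH replicates 1 to 4, 0.181, 0.100 and 0.155 in CONV replicates 1 to 3 and 0.170, 0.169 and 0.169 in sham replicates 1 to 3, a ratio chosen after the values were seen. The sham libraries agreed closely in this ratio, FLASH libraries lay above them in each case, and CONV lay on both sides. FLASH replicate 3, with 508 counts of Cldn5, lay only just above sham replicate 1 (0.173 and 0.170). This gap was not set against counting error, and no share of other ratios that lie apart is given.

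Pecam1, an adhesion molecule that platelets and leukocytes also carry, had 232, 178, 281 and 229 CPM in FLASH replicates 1 to 4, 174, 261 and 208 CPM in CONV replicates 1 to 3 and 166, 195 and 243 CPM in sham replicates 1 to 3. The 2 highest values were those of the lymphocyte-rich pair, and the other libraries of the 3 groups overlapped. The log2 fold change was 0.19 ± 0.23 (SE) in FLASH and 0.09 ± 0.24 in CONV against sham, and 0.07 ± 0.17 and −0.09 ± 0.19 with the 8 libraries. Pecam1 over Cdh5, another ratio chosen after the values were seen, was 0.639, 0.765, 2.48 and 0.949 in FLASH replicates 1 to 4, 0.816, 2.74 and 0.769 in CONV replicates 1 to 3 and 0.644, 0.789 and 0.763 in sham replicates 1 to 3. The ratio was high in the lymphocyte-rich pair and lower, and overlapping between groups, in the 8 other libraries. The same 2 libraries held the high sums of B cell markers given above. The part of leukocytes in the Pecam1 values was not tested.

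Emcn, a sialomucin of capillary and venous endothelium, had 27.0, 25.8, 13.7 and 28.5 CPM in FLASH replicates 1 to 4, 28.8, 10.1 and 20.7 CPM in CONV replicates 1 to 3 and 20.4, 33.0 and 47.1 CPM in sham replicates 1 to 3. Sham replicate 1 lay far below sham replicate 3, and FLASH and CONV overlapped them. CONV against sham gave −0.76 ± 0.45 (SE) and −0.46 ± 0.32 with the 8 libraries, with edgeR adjusted p = 0.607 and 0.575.

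Vwf, the clotting factor stored in endothelial granules and also made by megakaryocytes, had 111, 85.4, 58.6 and 130.3 CPM in FLASH replicates 1 to 4, 112, 39.5 and 77.9 CPM in CONV replicates 1 to 3 and 51.7, 141 and 121 CPM in sham replicates 1 to 3. Sham replicate 1 and the lymphocyte-rich pair were the low libraries, and sham spanned most of the range of both irradiated groups. Its log2 fold change was −0.12 ± 0.45 (SE) in FLASH and −0.45 ± 0.48 in CONV against sham, and 0.05 ± 0.35 and −0.16 ± 0.40 with the 8 libraries. The 8 platelet and megakaryocyte markers summed to 17.02 to 28.0 CPM in FLASH, 21.0 to 48.6 CPM in CONV and 19.4 to 24.8 CPM in sham, with the highest sum in CONV replicate 1, and their part in the Vwf values was not tested.

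Egfl7, a secreted protein of growing vessels whose gene hosts the microRNA miR-126, had 102, 82.2, 64.1 and 87.9 CPM in FLASH replicates 1 to 4, 72.0, 51.0 and 122 CPM in CONV replicates 1 to 3 and 86.8, 76.8 and 89.6 CPM in sham replicates 1 to 3. CONV replicate 3 was highest and CONV replicate 2 lowest, so that CONV spanned both other groups. FLASH against sham gave −0.01 ± 0.28 (SE) and 0.09 ± 0.19 with the 8 libraries, CONV against sham −0.05 ± 0.30 and 0.18 ± 0.21. The gene lies at chromosome 2, 26580014 to 26593120 (plus strand), and its exons share 264 bases with Gm20532 on the same strand, 64 with Agpat2 on the opposite strand, and 73 and 58 with Mir126a and Mir126b. Which strand setting was used in counting is not stated in the labels used here, and reads of these stretches are uncertain.

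Other genes of the same systems were read from 3 lists. Of 16 VEGF and angiopoietin ligands and other receptors none passed in any comparison, by edgeR with Benjamini-Hochberg adjustment, in either set of libraries. In CONV against sham 16 of 16 had negative log2 fold changes with a median of −0.39, against 43.1% negative and a median of 0.08 over all genes, but 10 of 16 with a median of −0.07 with the 8 libraries, against 48.7% and 0.01. The CONV median of this list was −0.86 in limma voom, −0.05 without CONV replicate 2 and −0.66 without CONV replicate 1. In FLASH against sham 10 of 16 were negative in both sets, with medians of −0.10 and −0.05, against 45.9% and 51.5% of all genes. Pgf, the placental growth factor that binds FLT1, had 2.18, 1.17, 2.93 and 1.39 CPM in FLASH replicates 1 to 4, 0.480, 1.14 and 0.662 CPM in CONV replicates 1 to 3 and 1.82, 1.99 and 1.45 CPM in sham replicates 1 to 3. Levels of Pgf were low, at 0.480 and 0.662 CPM in CONV replicates 1 and 3. Among the libraries outside the pair both CONV values were below all FLASH and sham values. In that set 13.2% of all genes lay below sham in this way and 12.8% lay below FLASH. For Pgf, CONV against sham gave −1.20 ± 0.48 (SE; edgeR adjusted p = 0.607) and −1.63 ± 0.39 with the 8 libraries (adjusted p = 0.146).

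Vegfc, the ligand best known in lymphatic growth, had 4.24, 3.44, 5.64 and 3.34 CPM in FLASH replicates 1 to 4, 1.79, 2.95 and 1.66 CPM in CONV replicates 1 to 3 and 2.73, 4.20 and 3.93 CPM in sham replicates 1 to 3. CONV replicates 1 and 3 were again the lowest of the libraries outside the pair. Of all genes 13.2% lay below sham and 12.8% below FLASH in this way. The log2 fold change of Vegfc in CONV against sham was −0.76 ± 0.36 (SE; edgeR adjusted p = 0.607), and −1.09 ± 0.27 with the 8 libraries (adjusted p = 0.159). Angpt2, the angiopoietin that destabilises vessels, had 8.48, 7.54, 6.14 and 7.35 CPM in FLASH replicates 1 to 4, 4.74, 4.93 and 4.52 CPM in CONV replicates 1 to 3 and 4.37, 7.13 and 7.13 CPM in sham replicates 1 to 3. Each FLASH library lay above each CONV library, where 1.13% of all genes did so with 10 libraries, and both groups overlapped sham. FLASH against CONV gave a log2 fold change of 0.64 ± 0.25 (SE; edgeR adjusted p = 0.999). Angpt1, the stabilising ligand of TEK, had −0.61 ± 0.56 in FLASH and −0.52 ± 0.60 in CONV against sham, and −0.41 ± 0.20 and −0.06 ± 0.22 with the 8 libraries. Vegfb, a ligand of FLT1, had −0.46 ± 0.51 in FLASH and −0.77 ± 0.55 in CONV, and −0.22 ± 0.29 and −0.42 ± 0.33 with the 8 libraries. Vegfa, named after its values were seen, had 295, 277, 120.3 and 295 CPM in FLASH replicates 1 to 4, 369, 77.3 and 419.8 CPM in CONV replicates 1 to 3 and 283, 265 and 328 CPM in sham replicates 1 to 3. The lymphocyte-rich libraries were lowest and CONV replicates 1 and 3 highest. With the 8 libraries, 13.3% of all genes were lower in each FLASH library than in each CONV library. The share in which CONV lay above sham is not given here.

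Of 25 endothelial transcription factor and Notch pathway genes none passed in any comparison in edgeR, in either set. In CONV against sham 19 of 25 were negative with a median of −0.34, against 43.1% of all genes, and 17 of 25 with −0.19 against 48.7% with the 8 libraries. FLASH against sham had 15 of 25 negative in both sets, with medians of −0.09 and −0.02, against 45.9% and 51.5% of all genes. Heyl, a Notch target of vascular mural cells and endothelium, had 29.3, 17.7, 4.67 and 23.9 CPM in FLASH replicates 1 to 4, 15.3, 3.45 and 12.6 CPM in CONV replicates 1 to 3 and 28.3, 28.1 and 31.6 CPM in sham replicates 1 to 3. All 3 CONV libraries lay below all sham libraries, where 9.11% of all genes did so. FLASH replicates 2, 3 and 4 also lay below all sham libraries. CONV against sham gave −1.49 ± 0.67 (SE; edgeR adjusted p = 0.607) and −1.09 ± 0.22 (adjusted p = 0.104) with the 8 libraries. Erg, an ETS factor that keeps endothelial identity, had −0.66 ± 0.31 in CONV and −0.28 ± 0.28 in FLASH against sham, and −0.50 ± 0.26 and −0.17 ± 0.23 with the 8 libraries. Meox2, a homeobox factor of endothelium that handles fatty acids, had −0.63 ± 0.33 in CONV and −0.38 ± 0.31 in FLASH against sham, and −0.41 ± 0.28 and −0.30 ± 0.25 with the 8 libraries. The Notch target Hes1 had −0.34 ± 0.23 in CONV and −0.35 ± 0.22 in FLASH, and −0.37 ± 0.24 and −0.29 ± 0.21 with the 8 libraries. Ets1, Hhex and Lyl1, which blood cells also express, were highest in the lymphocyte-rich pair, Ets1 at 789 and 719 CPM against 94.9 to 122 CPM elsewhere. With the 8 libraries their log2 fold changes in CONV against sham were −0.06, −0.14 and 0.31.

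Of 41 junction, adhesion and surface genes 40 were tested with all libraries and 41 with the 8, and none passed in edgeR in any comparison. In CONV against sham 22 of 40 were negative (median −0.04), against 43.1% of all genes, and 19 of 41 (median 0.0046) against 48.7% with the 8 libraries. In FLASH against sham 25 of 40 were negative (median −0.12), against 45.9% of all genes, and 15 of 41 (median 0.05) against 51.5% with the 8 libraries, where the median changed sign. Mcam, the adhesion molecule CD146 of endothelium and pericytes, had 562, 447, 84.6 and 379 CPM in FLASH replicates 1 to 4, 225, 45.4 and 221 CPM in CONV replicates 1 to 3 and 485, 434 and 417 CPM in sham replicates 1 to 3. The CONV libraries all lay below all sham libraries, a separation that 9.11% of all genes showed. FLASH replicates 1, 2 and 4 lay above, within and below the sham range of Mcam. CONV against sham gave −1.44 ± 0.71 (SE; edgeR adjusted p = 0.607) and −1.02 ± 0.18 with the 8 libraries (adjusted p = 0.0924). The 10 mural cell markers, which include pericyte genes, summed to 826 to 1038 CPM in FLASH replicates 1, 2 and 4. The sums were 779 and 1300.1 CPM in CONV replicates 1 and 3 and 916 to 1077 CPM in sham. Cspg4 alone had 674 CPM in CONV replicate 3, against 116 to 205 CPM in sham. The mean log2 CPM of the list relative to sham was −0.314 and −0.320 in CONV replicates 1 and 3. It was −0.300 to 0.207 in sham and −0.250 to 0.071 in FLASH replicates 1, 2 and 4. In the lymphocyte-rich pair the mural cell markers summed to 544 and 459 CPM, and the part of mural cells in the Mcam values was not tested.

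Icam1, an adhesion molecule that leukocytes bind on endothelium, had 12.02, 16.2, 94.4 and 17.8 CPM in FLASH replicates 1 to 4, 26.4, 91.3 and 25.5 CPM in CONV replicates 1 to 3 and 12.9, 13.8 and 13.5 CPM in sham replicates 1 to 3. The lymphocyte-rich pair was highest, and CONV replicates 1 and 3 were next, above all sham libraries and the other FLASH libraries. The share of all genes in which CONV lay above sham is not given here, so that separation stands without a background. Among the 8 libraries 13.3% of all genes were lower in each FLASH library than in each CONV library. The log2 fold change of Icam1 in CONV against sham was 1.83 ± 0.84 (SE; edgeR adjusted p = 0.607) and 0.93 ± 0.18 (adjusted p = 0.103) with the 8 libraries. Sele, the endothelial selectin, had 0.333, 1.02, 0.463 and 1.61 CPM in FLASH replicates 1 to 4, 2.82, 1.71 and 5.08 CPM in CONV replicates 1 to 3 and 0.364, 0.846 and 1.55 CPM in sham replicates 1 to 3. Levels of Sele were low, and CONV replicate 2 (1.71 CPM) lay close to FLASH replicate 4 (1.61 CPM) and sham replicate 3 (1.55 CPM). Its log2 fold change in CONV against sham was 1.80 ± 0.75 (SE; edgeR adjusted p = 0.607). Selp, the selectin of endothelium and platelets, named after its values were seen, had 8.66, 8.82, 5.48 and 11.1 CPM in FLASH replicates 1 to 4, 18.8, 6.17 and 28.5 CPM in CONV replicates 1 to 3 and 5.59, 9.08 and 11.6 CPM in sham replicates 1 to 3. CONV against sham gave 1.03 ± 0.52 (SE; edgeR adjusted p = 0.607) and 1.41 ± 0.31 with the 8 libraries (adjusted p = 0.124). In that set 13.3% of all genes were lower in each FLASH library than in each CONV library. The share for CONV above sham is again not given. For Selp, CONV replicates 1 and 3 were highest. The 10 macrophage markers summed to 2111 and 807 CPM in those libraries, against 764 to 922 CPM in sham, and their part in these values was not tested. Vcam1 had 2.22 ± 1.11 in CONV and 1.33 ± 1.03 in FLASH against sham with the lymphocyte-rich pair, and 0.56 ± 0.25 and −0.17 ± 0.23 with the 8 libraries. The endothelial protein C receptor Procr had −0.91 ± 0.54 in CONV and −0.76 ± 0.50 in FLASH against sham, and −0.70 ± 0.56 and −0.59 ± 0.49 with the 8 libraries. The endothelial gene Myct1 had −1.05 ± 0.42 in CONV and −0.49 ± 0.39 in FLASH, and −0.84 ± 0.28 and −0.27 ± 0.24 with the 8 libraries.

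**Figure D5:**
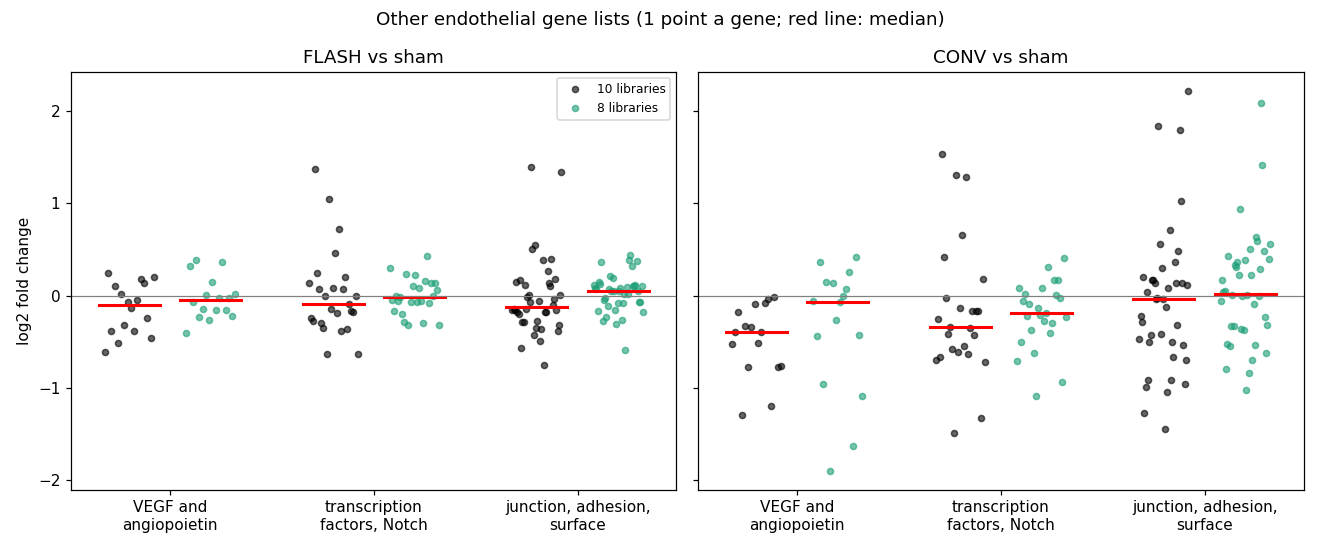
Log2 fold changes of the genes of the 3 lists in FLASH against sham and CONV against sham, with all 10 libraries and with the 8, for genes tested with all 10, each point 1 gene and the red line the median of the points. None of the points passed the adjusted threshold in edgeR, and the CONV median of the VEGF and angiopoietin list is −0.39 with all libraries and −0.07 with the 8.

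Over the 8 libraries the genes whose log2 CPM ran most like the mean of the 10 were Proser3 (Pearson r = 0.95), Pik3c2b (0.94), Ccm2l (0.94), Fgd5 (0.93), 5033406O09Rik (0.92), She (0.92), Lmo7 (0.92) and Csgalnact1 (0.92). These are the 8 highest of the genes tested, given as a description over 8 libraries made by the same RNA protocol, and 5033406O09Rik rests on 0.240 CPM. The 10 genes themselves ran together unevenly over these libraries. Their correlation with the other members was 0.05 for Tek, 0.20 for Flt1 and 0.92 for Pecam1. Fgd5 encodes a guanine nucleotide exchange factor of endothelium and Ccm2l a vascular paralog of CCM2.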

How the data were processed

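Total RNA libraries were made with a ribosomal depletion kit that keeps strand, per the labels' protocols. The deposited tables are raw counts, 1 whole number per gene symbol, not normalized by the authors. Their last 5 entries, reads not assigned to a single gene symbol (52.0% to 69.6% of each library), stayed out of library sizes and tests. The submitters' processing notes name kallisto 0.5.0 and mm10. The last 5 entries are in the style of htseq, another counting program, so which program made the counts is not known. Neither the strand setting nor the annotation is stated there or in the labels.

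Groups came from the labels. In R 4.3.3, genes were filtered by filterByExpr, scaled by TMM (factors 0.875 to 1.17) and fitted in edgeR 4.0.16 (quasi-likelihood, robust, 1 mean per group). The 3 contrasts were tested two-sided, with Benjamini-Hochberg adjustment over all genes and a threshold of 0.05. The common coefficient of biological variation came to 0.543 with 10 libraries (15266 genes) and 0.284 with 8 (15252 genes). The 8 libraries leave out those in which the mean log2 CPM of the B cell markers exceeded that of the highest sham library by more than 3. Steps were tested on simulated data with 200 genes changed 4-fold in CONV against sham. With 10 libraries 39% of them were recovered with 9 false calls, and with 8 libraries 92% with 13. Changes of that size could thus go uncalled, mostly with 10 libraries.

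The members and the gene lists (3 lists of related genes, 10 of cell type markers) were chosen with earlier results of these data known. From each related list, the 2 genes with the smallest unadjusted p in each direction of FLASH and CONV against sham are named. Likeness is the Pearson correlation of log2 CPM (prior count 2) with the mean of the members. Alternatives used other scalings, no filter, DESeq2 1.42.0, limma 3.58.1 (voom), fits of 2 groups, a replicate block and leaving out libraries. Locations and exon lengths came from GENCODE M21 (GRCm38), promoters from RefSeq.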

Additional observations from a re-analysis of the deposited data

Results flagged for a closer look

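Flt1 in FLASH replicate 3 stood at 41.1 CPM, far from the 115, 121 and 115 CPM of FLASH replicates 1, 2 and 4. Its gap to the nearest library was 0.928 of the group's range, more than Dixon's test allows at its 95% level for 4 libraries. Of the 10 genes tested in this way in the FLASH group 1 was picked out, and chance picks about 5% of groups. FLASH replicate 3 is 1 of the 2 lymphocyte-rich libraries, and the other, CONV replicate 2, had 37.3 CPM of Flt1. The part of lymph node tissue in this value was not tested.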

How the results depend on the processing

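None of the 10 endothelial genes passed under any of 28 settings, and the lowest adjusted p of any of them was 0.0885, for Egfl7 in CONV against sham without the lymphocyte-rich pair and CONV replicate 1. The number of all genes called moved instead: in FLASH against sham to 4 with DESeq2 on the 8 libraries, in CONV against sham to 66 (DESeq2), 6 (8 libraries) and 661 (8 libraries, DESeq2), and in FLASH against CONV to 40, 2 and 667, from 0 in each with 10 libraries. Leaving out 1 library gave 0 to 1134 calls in CONV against sham and 0 to 1025 in FLASH against CONV, the high ends without CONV replicate 1 in the 8-library set, where the lone CONV library has to borrow its spread from the other groups.

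Signs of the small log2 fold changes depended on the setting, and the cause was not tested. In FLASH against sham Cldn5 turned to −0.0072 (total counts), −0.12 (limma voom) and −0.014 (replicate block), and Egfl7 to 0.010 (total counts). With the 8 libraries Flt1, Cdh5, Tie1, Vwf and Egfl7 turned to 0.0016, 0.013, 0.14, 0.049 and 0.093, and with DESeq2 to 0.0068, 0.021, 0.15, 0.051 and 0.10. In CONV against sham Flt1, Pecam1 and Egfl7 turned to 0.33, −0.093 and 0.18, and with DESeq2 to 0.34, −0.083 and 0.19. In FLASH against CONV Egfl7 turned to −0.084 and with DESeq2 −0.088, and Tek to −0.053 with the replicate block. Same-numbered libraries did not deviate together (correlations from −0.76 to 0.26), and the labels do not say that the numbers pair libraries. With so few libraries per group such correlations cannot decide whether they are paired. The replicate block called 0 genes in each comparison.

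Leaving out 1 library in turn, from the 10 or from the 8, gave these ranges. In FLASH against sham they were −0.29 to 0.073 (Kdr), −0.36 to 0.18 (Flt1), −0.046 to 0.34 (Pecam1), −0.49 to 0.13 (Cdh5), −0.60 to 0.0072 (Tek), −0.24 to 0.22 (Tie1), −0.45 to 0.33 (Vwf), −0.25 to 0.37 (Cldn5), −0.76 to 0.011 (Emcn) and −0.11 to 0.16 (Egfl7). In CONV against sham they were −0.55 to 0.56 (Flt1), −0.22 to 0.23 (Pecam1), −0.99 to 0.072 (Tek), −0.61 to 0.26 (Tie1), −0.84 to 0.12 (Vwf) and −0.47 to 0.50 (Egfl7), and Kdr, Cdh5, Cldn5 and Emcn kept a negative sign. In FLASH against CONV they were −0.60 to 0.30 (Flt1), −0.019 to 0.29 (Pecam1), −0.028 to 0.63 (Cdh5), −0.26 to 0.59 (Tek), −0.12 to 0.61 (Tie1), −0.044 to 0.72 (Vwf), −0.085 to 0.63 (Emcn) and −0.41 to 0.46 (Egfl7), and Kdr and Cldn5 kept a positive sign.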

Other observations

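Lymphatic endothelial markers, 7 genes, summed to 63.4 to 137 CPM in FLASH, 67.0 to 237 CPM in CONV and 57.3 to 169 CPM in sham. Prox1, the lymphatic master regulator, was at 0.333, 0.988, 18.1 and 2.75 CPM in FLASH replicates 1 to 4, 4.32, 17.8 and 0.552 CPM in CONV replicates 1 to 3 and 0.425, 2.47 and 2.76 CPM in sham replicates 1 to 3, highest in the lymphocyte-rich pair. Other genes of the list did not follow it: Lyve1 (83.4 CPM), Mmrn1 (53.7 CPM) and Pdpn (34.8 CPM) were highest in CONV replicate 1, as was the sum, and Pdpn stood at 9.38 and 10.7 CPM in the pair. Ccl21a had a count of 0 in all 10 libraries, which does not show that its RNA was absent. The part of read counting in this value was not tested. The 6 high endothelial venule markers summed to 304 to 570.3 CPM in FLASH, 320 to 516 CPM in CONV and 418 to 477 CPM in sham, most of it from Enpp2, which fat also expresses. Their more restricted members Chst4 and Madcam1 were at 4.55 and 2.16 CPM in FLASH replicate 3 and 7.41 and 5.23 CPM in CONV replicate 2, and at most 0.294 CPM elsewhere.

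The 10 mural cell markers summed to 544 to 1038 CPM in FLASH, 459 to 1300.1 CPM in CONV and 916 to 1077 CPM in sham, lowest in the lymphocyte-rich pair. Cspg4 alone had 674 CPM in CONV replicate 3, where the sum was highest. Skeletal muscle markers, 8 genes, summed to 1646 CPM in CONV replicate 1, 570.1 CPM in sham replicate 3 and 303 CPM in FLASH replicate 2, and to at most 44.5 CPM elsewhere. The 7 keratinocyte markers were highest in FLASH replicate 4, at 136 CPM. Of the 5 red cell genes the 4 globin genes had a count of 0 in all libraries. Alas2 was at 2.12 to 17.8 CPM in FLASH, 2.18 to 111 CPM in CONV and 6.71 to 8.47 CPM in sham. A count of 0 in every library does not show that globin RNA was absent, and the part of read counting in it was not tested.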
